A study of Mus musculus with 6 samples.

Results

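Transcripts of red blood cells and of neutrophils were compared between control and *Arid1b* mutant incisors, as a measure of the blood that each group of samples held. The set consisted of 10 of the 19270 genes in the deposited table, 6 of red cells (*Hbb-bs*, *Hbb-bt*, *Hba-a1*, *Hba-a2*, *Alas2* and *Slc4a1*) and 4 of neutrophils (*S100a8*, *S100a9*, *Ngp* and *Camp*). These genes were selected on the group means of this same comparison, so their means are given as a description and no test was run on them. Bulk RNA-seq was performed on total RNA from the proximal end of the incisor in 3 control and 3 mutant samples. The genotype of the mutants was *Gli1-CreER;Arid1b* fl/fl. Tamoxifen activates the CreER recombinase in cells that express *Gli1* so cells outside that lineage keep *Arid1b*. The controls were labelled wild type, while the methods describe them as *Arid1b* fl/fl mice given the same tamoxifen injections. The mice of all 6 samples received tamoxifen at 1 month of age, and tissue was taken after 4 days. The methods describe the dissected tissue as mesenchyme, whereas the labels give incisor.

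The protein of the mature red cell is mostly hemoglobin, a tetramer of α-globin and β-globin chains that each hold a heme group. Erythroblasts make these chains and the heme in the bone marrow, and young red cells still contain globin mRNA when they enter the blood. Neutrophils are short-lived phagocytes of the blood whose granule proteins are transcribed mainly in marrow precursors, while the calgranulins S100A8 and S100A9 remain abundant in the circulating cell. The pulp of the growing incisor is rich in capillaries, and both cell types reach it through the blood.

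The deposited gene table holds 1 mean per group, in a normalized signal in which the value of 1 read lay between 0.0191 and 0.0265 in the 6 libraries. The libraries were estimated to hold 39868312, 39556420 and 39087724 reads on genes in controls 1 to 3, and 49594469, 42625066 and 37123643 in mutants 1 to 3. For some genes the reads of each library could be recovered from the digits of the group mean, since a mean of 3 libraries with unequal factors fixes the 3 whole numbers of reads. This gave reads in both groups for 3153 of the 19270 genes, among them 3 of the 10 members, *Slc4a1*, *Ngp* and *Camp*. For the other 7 members no combination of whole reads gave the deposited mean, and for these the authors' mean of each group is the sole value, with no spread. The targeted gene *Arid1b* had authors' means of 97.6 for the control group and 38.0 for the mutant group, a log2 ratio of -1.36.

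Mutant library 1 differed from mutant libraries 2 and 3 in the reads of some blood cell genes and of other genes. Genes for this comparison were filtered on at least 50 reads over the controls, a choice made after seeing the data, so that reads of mutant 1 play no part in it. Of the 1748 such genes with recovered reads, 11 had a signal in mutant 1 at least 3-fold above the mean of mutants 2 and 3, a share of 0.629%. The lists of blood cell genes, which cover 10 of the 1748, held 7 of these 11, namely *Slc4a1*, *Ngp*, *Camp*, *Mmp8*, *Cd177*, *Retnlg* and *Prg2*. The other 4 were *Klk1b22*, *Syce1*, *5430427N15Rik* and *Gm16299*. In the other direction, 31 of the 1748 genes (1.77%) were at least 3-fold lower in mutant 1, and 0 of these were on the blood cell lists. A filter of 50 reads over mutants 2 and 3 alone, which removes genes with few reads there, left 1 gene at least 3-fold higher, *Ngp*. Lymphocyte genes gave another picture, with 34, 37 and 18 reads in mutants 1 to 3 for *Igkc*, 17, 9 and 18 for *Ighd*, 6, 13 and 14 for *Rag1*, 43, 36 and 38 for *Cd28* and 10, 8 and 5 for *Gzmb*, while *Cd3d* had 11, 2 and 0. Among the controls, library 3 was at least 2-fold above the mean of controls 1 and 2 for 43 of 1821 genes (2.36%) with at least 50 reads over the mutants, and at least 2-fold below it for 102 (5.60%). Log2 ratios of members and sums from recovered reads are therefore given with and without mutant 1, and genes named for their recovered reads were chosen after their values were seen.

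The α- and β-globin mRNAs had lower means in the mutants. For *Hbb-bs*, an adult β-globin gene, the authors' mean was 29.0 in controls and 9.97 in mutants. In a bulk sample, fewer cells of a type and less RNA per cell cannot be told apart. *Hbb-bt*, the neighbouring adult β-globin gene, had means of 4.49 and 0.998. The α-globin copies were at 20.4 and 7.49 for *Hba-a2* and at 8.73 and 3.33 for *Hba-a1*. The means thus stood in the same order in both groups, with *Hbb-bs* first and *Hbb-bt* last. The log2 ratios of mutant over control were -1.54 for *Hbb-bs*, -2.17 for *Hbb-bt*, -1.45 for *Hba-a2* and -1.39 for *Hba-a1*. Together the 4 globins made up 0.00613% of the summed signal of the controls and 0.00221% of that of the mutants. The mean of *Hbb-bs* corresponded to about 1122 reads per control library and 431 per mutant library.

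Assignment of reads between the globin copies is uncertain. *Hba-a1* (chromosome 11, 32283511 to 32284465, plus strand) and *Hba-a2* (chromosome 11, 32296489 to 32297298, plus strand) have coding sequences that are identical at 425 of 426 bases. *Hbb-bs* (chromosome 7, 103826534 to 103828096, minus strand) and *Hbb-bt* (chromosome 7, 103812524 to 103813996, minus strand) are identical at 440 of 441 coding bases. Most coding reads therefore match both copies of a pair, and the sums over each pair depend less on how reads were shared out. The summed α-globins were at 29.2 in the controls and 10.8 in the mutants, 2.70-fold lower. The summed β-globins were at 33.5 and 10.97, 3.06-fold lower, and the α to β ratio was 0.870 in the controls and 0.986 in the mutants. Beside these, the θ-globin gene *Hbq1a* was at 0.131 in the controls, and its mutant mean of 0.0231 was the value of 0 reads, which allows up to 3 reads per library. It is named here because it was the last measured gene of the globin list, in which 5 of 12 genes were measured.

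*Alas2* (chromosome X, 150547375 to 150570638, plus strand) encodes the erythroid form of 5-aminolevulinate synthase, the enzyme that starts heme synthesis. Its authors' mean was 1.01 for controls and 0.351 for mutants, about 38.1 and 14.2 reads per library. The log2 ratio was -1.53, close to that of the globins. The other 13 genes of heme synthesis and iron uptake, which most cell types express, had log2 ratios between -0.12 and 0.27, and 0 of 13 passed 1.5-fold. The 3 most abundant were the transferrin receptor gene *Tfrc* (71.0 and 73.4), the ferrochelatase gene *Fech* (58.1 and 56.1) and *Cpox* (40.1 and 39.5), the gene of coproporphyrinogen oxidase. *Alas2* had the lowest ratio of the 14. *Alas2* lies in a span shared with a gene on the other strand, and without a statement on strand in the counting their reads cannot be told apart.

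*Slc4a1* (chromosome 11, 102348824 to 102366203, minus strand) encodes band 3, the anion exchanger of the red cell membrane. Its recovered reads were 8, 27 and 46 in controls 1 to 3 and 62, 0 and 4 in mutants 1 to 3. Normalized, these are 0.211, 0.715 and 1.14 in the controls and 1.19, 0 and 0.105 in the mutants. The highest of the 6 values was thus in a mutant library, the groups overlapped, and mutants 2 and 3 lay below every control. The mean was 0.688 ± 0.465 (SD, n = 3) in the controls and 0.430 ± 0.656 (SD, n = 3) in the mutants. These means differed by less than either SD, and the log2 ratio was -0.68. Without mutant 1 the log2 ratio was -3.71, resting on 4 reads, and without mutant 2 it was -0.09. The 0 reads in mutant 2 allow up to 3 reads, and such limits cover counting error only.

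Mutant 1 held 91.9% of the mutant signal of *Slc4a1*. Of the 12 measured genes of the red cell membrane and skeleton that are reported here, 3 were lower past 1.5-fold (*Slc4a1*, *Rhd* and *Tmod1*) and 1 was higher (*Ermap*). All of these had means over both groups below 1, and over all genes 5.8% were lower past 1.5-fold and 7.37% higher. The most abundant genes of the list, *Aqp1* (109 and 102), *Gypc* (109 and 95.9) and *Epb41* (95.5 and 81.2), are used by many cell types and had log2 ratios of -0.10, -0.19 and -0.23.

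The regulators and late genes of the red cell lineage were measured for 12 of 20 genes, with a median log2 ratio of -0.01. The transcription factor gene *Nfe2* was lower past 1.5-fold (0.653 and 0.394), and the exonuclease gene *Isg20* was higher (0.569 and 0.904). *Klf1*, the erythroid Krüppel-like factor gene, had 13, 10 and 13 recovered reads in controls 1 to 3. *Prdx2*, *Bnip3l* and *Car2* were the most abundant of this list, with means of 209, 138 and 59.3 in the controls and 208, 129 and 75.9 in the mutants. Over the 4 erythroid lists, 4 of 37 measured genes outside the set of 10 were lower past 1.5-fold and 2 were higher. The shares over all 19270 genes were 5.8% and 7.37%. Each of these called genes had a mean over both groups below 1, so the counts are read no further.

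**Figure D1:**
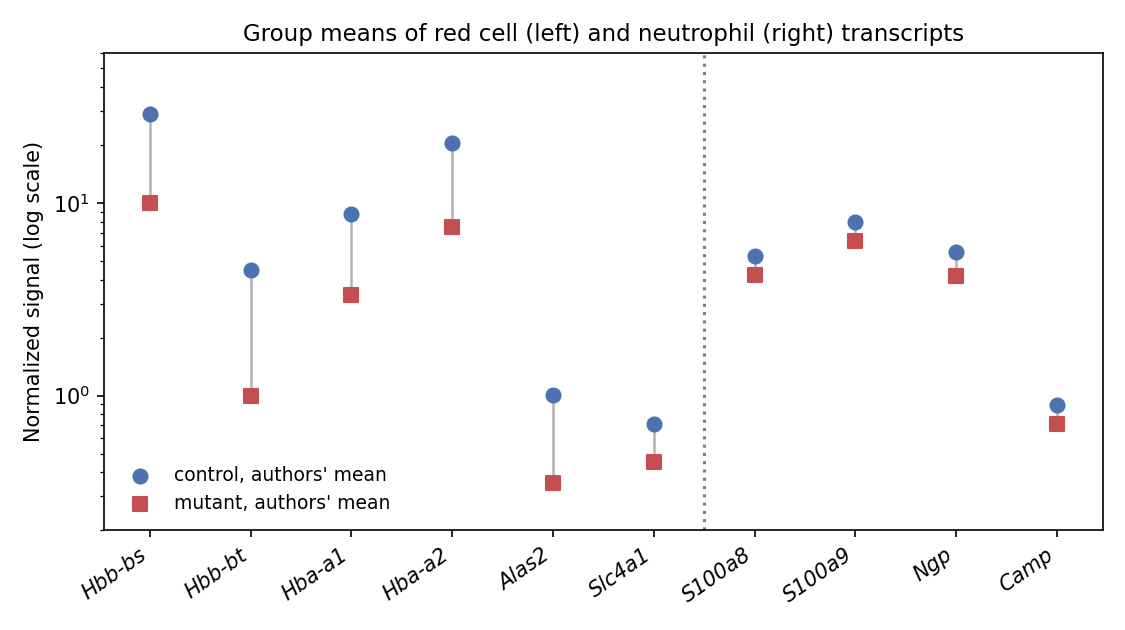
Authors' group means of the 6 red cell and 4 neutrophil transcripts in control (circles) and mutant (squares) incisors, in normalized signal on a log axis. Grey lines join the means of 1 gene, which carry no error bar since the table holds 1 value per group; *Hbb-bs* is at 29.0 and 9.97, and the neutrophil genes lie closer together.

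The calgranulin genes were lower in the mutants by a smaller ratio than the globins. *S100a8* (chromosome 3, 90668978 to 90670035, plus strand) and *S100a9* (chromosome 3, 90692632 to 90695721, minus strand) encode the subunits of calprotectin, a zinc- and calcium-binding complex of the neutrophil cytoplasm. For *S100a9* the authors' mean was 8.003 in controls and 6.35 in mutants. *S100a8* had means of 5.27 and 4.21. Their log2 ratios were -0.33 and -0.33, and *S100a8* stood to *S100a9* as 0.659 in the controls and 0.663 in the mutants.

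*Ngp* (chromosome 9, 110419747 to 110423012, plus strand) encodes neutrophilic granule protein, a product of neutrophil precursors. Its recovered reads were 113, 165 and 370 in controls 1 to 3 and 414, 84 and 94 in mutants 1 to 3, or 2.97, 4.37 and 9.16 and 7.92, 2.00 and 2.47 in normalized signal. Control 3 and mutant 1 were the high libraries, the groups overlapped, and mutants 2 and 3 were below every control. The mean was 5.50 ± 3.25 (SD, n = 3) in the controls and 4.13 ± 3.29 (SD, n = 3) in the mutants. These means differed by less than either SD, and the log2 ratio was -0.41. Without mutant 1 it was -1.30, and without control 3 it was 0.17, so the direction turned with 1 library.

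*Camp* (chromosome 9, 109847379 to 109849617, minus strand) encodes the cathelicidin antimicrobial peptide of secondary granules. Its recovered reads were 18, 22 and 62 in controls 1 to 3 and 73, 17 and 10 in mutants 1 to 3. In normalized signal these are 0.474, 0.583 and 1.54 in the controls, and 1.40, 0.406 and 0.262 in the mutants. The same 2 libraries, control 3 and mutant 1, were high. The mean was 0.864 ± 0.584 (SD, n = 3) in the controls and 0.688 ± 0.617 (SD, n = 3) in the mutants, and the log2 ratio of -0.33 became -1.37 without mutant 1, 0.38 without control 3 and 0.06 without mutant 3.

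Of 28 measured genes of the neutrophil lists, 8 had recovered reads in both groups. Mutant 1 was above mutants 2 and 3 in 8 of 8, and was the highest of all 6 libraries in 5 of 8. Over all 3153 genes with recovered reads these shares were 26.5% and 10.8%. *Mmp8*, the gene of neutrophil collagenase, had 19, 43 and 61 reads in the controls and 84, 9 and 19 in the mutants. *Retnlg*, the resistin-like γ gene of mature neutrophils, had 14, 29 and 59 reads in the controls and 120, 15 and 17 in the mutants. *Cd177*, a neutrophil surface glycoprotein gene, had 7, 14 and 32 reads in the controls and 49, 5 and 6 in the mutants. *Fpr1*, the formyl peptide receptor gene, differed less among the mutants, with 17, 19 and 49 reads in the controls and 63, 32 and 31 in the mutants. The summed signal of the 8 genes, which also include *Ngp*, *Camp*, *Padi4* and *Elane*, was 5.26, 8.24 and 16.1 in the controls and 16.2, 3.94 and 4.98 in the mutants. Mutant 1 held 64.5% of the summed mutant signal. The log2 ratio of the sums was -0.24 with all libraries, -1.15 without mutant 1, 0.31 without control 3, 0.10 without mutant 2 and 0.03 without mutant 3.

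**Figure D2:**
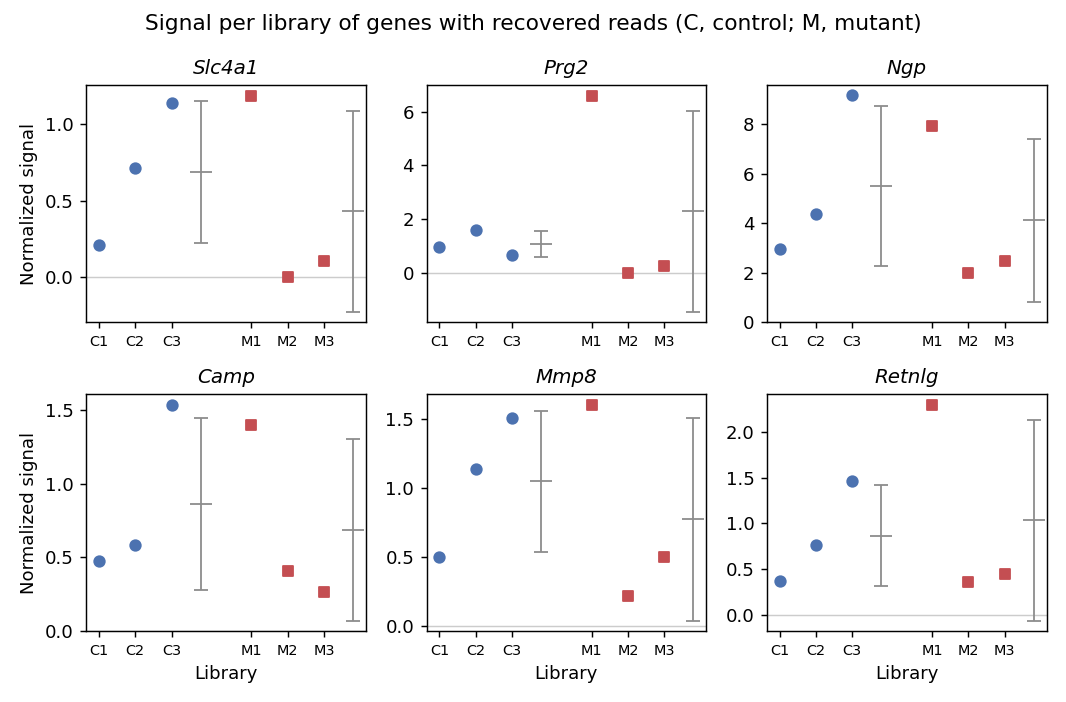
Normalized signal of 6 genes in each library, from recovered reads, for controls 1 to 3 (circles, C1 to C3) and mutants 1 to 3 (squares, M1 to M3); grey bars give the group mean and SD (n = 3), and each panel has its own linear axis. The 6 genes were chosen from the 7 blood cell genes at least 3-fold higher in mutant 1 than the mean of mutants 2 and 3. That mutant 1 lies above mutants 2 and 3 in each panel follows from this choice. *Ngp* is at 7.92 against 2.00 and 2.47, and *Fpr1*, where mutant 1 was 1.53-fold above that mean, is not shown.

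Set side by side, the ratio was below 1/1.5 for 6 of 6 red cell members and for 0 of 4 neutrophil members. Over all 19270 genes, 5.8% were lower past 1.5-fold in the mutants and 7.37% were higher, and the median log2 ratio was 0.00. Among the 7679 genes whose mean over both groups lay in the range of the members, from 0.584 to 19.5, these shares were 4.48% and 8.07%. Since the members were selected on these ratios, the counts are read no further. The member just past the threshold was *Slc4a1*, with a ratio of 0.635, and the nearest member short of it was *Ngp*, with 0.751. From recovered reads, *Slc4a1* did not pass 1.5-fold without mutant 2 (log2 ratio -0.09), without control 3 (-0.11) or without mutant 3 (-0.22). The median log2 ratio was -1.49 over the red cell members and -0.33 over the neutrophil members. Over all measured genes of the lists it was -0.0466 for red cells and 0.0373 for neutrophils.

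The summed signal of the red cell members was 64.4 for controls and 22.6 for mutants, and that of the neutrophil members was 19.7 and 15.4. The red cell to neutrophil ratio of these sums, which is not corrected for gene length, was thus 3.27 in the controls and 1.46 in the mutants. Over all measured genes of the lists, this ratio was 9.84 in the controls and 7.95 in the mutants. These sums are mostly of genes shared with other cells, so that ratio is no measure of blood alone. In the controls the globin list summed to 62.8, beside 385 for heme synthesis and iron uptake and 358 for membrane and skeleton. Of the neutrophil lists, *Ctsc* alone was at 64.7 in the controls. Per kilobase of exon, *Hbb-bs* stood at 37.8 in the controls and 12.9 in the mutants, *S100a9* at 15.3 and 12.1, and *Ngp* at 4.50 and 3.38. *Slc4a1* was the lowest member on that scale, at 0.141 and 0.0880. The order of *Hbb-bs* and *S100a9* on this scale was the same in both groups, with less distance between them in the mutants.

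The recovered reads gave such a ratio within each library. The signal of *Slc4a1* stood to the summed signal of the 8 neutrophil genes as 0.0400, 0.0868 and 0.0708 in controls 1 to 3. In mutants 1 to 3 it was 0.0733, 0 and 0.0211. Mutant 1 thus lay within the range of the controls and mutants 2 and 3 below it. The value of mutant 2 rests on 0 reads of *Slc4a1* against 165 neutrophil reads, and that of mutant 3 on 4 against 190. Without mutant 1, the mutant mean was 13.1-fold below that of the controls for *Slc4a1* and 2.21-fold below it for the neutrophil sum. Whether the globins and *Alas2* had the same distribution over the mutant libraries was not measured. Their mutant means allow any distribution. With all reads of the group in 1 mutant library, *Hbb-bs* would be at 29.8 there, above the control mean of 29.0.

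The measured neutrophil genes outside the set were spread over both directions. By the authors' means, 15 of 24 such genes were higher and 9 lower in the mutants, with a median log2 ratio of 0.16. This direction depends on single libraries where it could be followed: of the 6 with recovered reads, 3 were higher with all libraries, 1 without mutant 1 (*Fpr1*), 1 without control 1, 4 without control 2, control 3 or mutant 3, and 6 without mutant 2. Without mutant 1, *Retnlg* went from a log2 ratio of 0.25 to -1.11 and *Elane* from 0.52 to -0.77. Among the 13 on the list of calgranulins and mature neutrophil genes 10 were higher and the median was 0.30, while it was -0.30 over the 7 of secondary granules and 0.17 over the 4 of primary granules. Of the 24, 2 were lower past 1.5-fold (*Il1r2* and *Itgb2l*) and 2 were higher (*Il1b* and *Mmp9*), beside shares of 5.8% and 7.37% over all genes. *Il1r2*, *Itgb2l* and *Il1b* had means below 1 in both groups. *Mmp9*, a gelatinase gene also made by osteoclasts, was at 9.25 in the controls and 16.9 in the mutants. The secondary granule gene *Ltf*, encoding lactoferrin, was at 3.65 and 2.95, with a log2 ratio of -0.30 near that of *Ngp* and *Camp*. *Cybb* (25.6 and 32.1), an oxidase gene shared with macrophages, had a log2 ratio of 0.33. The primary granule genes *Prtn3* (0.575 and 0.535) and *Mpo* (0.399 and 0.420) were below 1 in both groups, while *Ctsc* (64.7 and 78.1) is expressed by many cells.

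Other cells that travel in blood or line its vessels gave further reference values. Of 13 genes of monocytes and macrophages, 8 were higher and 5 lower in the mutants, 0 of them past 1.5-fold, and the median log2 ratio was 0.06, with *Lyz2* at 126 in the controls and 132 in the mutants, *Mrc1* at 124 and 117, and *Csf1r* at 84.8 and 97.3. The log2 ratios of that list ran from -0.45 (*Ly6c2*) to 0.40 (*Cd68*). Of 12 endothelial genes, 0 passed 1.5-fold, with a median log2 ratio of 0.02. *Cdh5*, the VE-cadherin gene, was at 95.2 and 94.4, *Eng* at 85.5 and 86.7, and *Kdr*, a VEGF receptor gene, at 77.9 and 69.6. *Cldn5*, an endothelial tight junction gene, had 407, 424 and 447 reads in controls 1 to 3 and 626, 416 and 427 in mutants 1 to 3, which is 1.13-fold more normalized signal in mutant 1 than in mutants 2 and 3. For platelets, 1 of 7 measured genes passed 1.5-fold (*Tubb1*, higher). It had 1, 0 and 1 reads in controls 1 to 3 and 5, 3 and 11 in mutants 1 to 3. *Vwf* was at 80.3 and 96.9, a level close to that of the endothelial genes named above. *Pf4* was at 9.22 and 11.2, and *Gp1bb* at 6.40 and 5.05. For B cells 2 of 10 were higher (*Ighd* and *Igkc*) and for T and NK cells 2 of 8 (*Cd4* and *Trbc2*), with 0 lower in either list. Over all genes, 7.37% were higher past 1.5-fold and 5.8% lower. *Ighd*, *Igkc* and *Trbc2* had means below 1 in both groups. The B cell genes of highest mean were *Ighm* (10.7 and 12.4), *Ebf1* (9.73 and 9.31) and *Cd79b* (0.829 and 0.913). Those of T and NK cells were *Cd4* (3.62 and 5.46), *Lck* (1.26 and 1.26) and *Cd28* (1.17 and 0.916).

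Markers of the dissected tissue also differed between the groups. All 11 dental epithelium genes were higher past 1.5-fold in the mutants, their summed signal being 1607 in the controls and 10314 in the mutants, with the amelogenin gene *Amelx* the most abundant (362 and 3946). The enamel matrix genes *Ambn* and *Enam* had log2 ratios of 2.44 and 3.87, the keratin genes *Krt5*, *Krt14* and *Krt17* of 1.22, 1.01 and 1.23, and *Epcam*, *Cdh1* and *Trp63* of 0.78, 0.85 and 0.92. All 9 odontoblast genes were lower, 1 of them past 1.5-fold (*Dmp1*, 68.1 and 23.7), with *Col1a1* at 21211 and 17127, *Dspp* at 5179 and 4136, and *Col1a2* at 4106 and 3330. Of 16 genes of dental mesenchyme and follicle, 2 were lower past 1.5-fold, *Gli1* (106 and 46.1) and *Barx1* (0.932 and 0.516), and 0 were higher. Over all genes, 5.8% were lower past 1.5-fold and 7.37% higher. The mutants carried the *Gli1-CreER* driver, which the methods do not name for the controls. Its part in the *Gli1* value cannot be told apart from a difference in tissue. The highest means of that list were *Postn* (264 and 333), *Msx2* (233 and 201) and *Msx1* (231 and 208). Of 7 genes of marrow stroma, osteoclasts and fat, 2 were higher, *Mmp13* (41.0 and 138) and *Acp5* (12.9 and 28.1), with *Cxcl12* at 210 and 222 and *Ctsk* at 79.4 and 76.0. The part of these differences in the blood cell values was not tested.

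The promoters of the members were compared because the red cell members had lower means together. RefSeq promoters on GRCm38.p6, reaching from 250 bases before to 50 bases after the transcript start, were matched for 9 of the 10 members, 5 of red cells and 4 of neutrophils. On either strand, CACCC was found in 5 of 5 red cell and 2 of 4 neutrophil promoters, against 57.5% of all 32851 promoters. CCAAT was found in 4 of 5 and 1 of 4, against 37.4%. Of the 5 red cell promoters, 4 belong to the 2 pairs of globin copies, so they are not 5 separate cases to set against these shares. AGATAA was found in 2 of 5 and 1 of 4 (11.2% of all), TATAAA in 2 of 5 and 2 of 4 (13.6%), TTGCNNAA in 1 of 5 and 2 of 4 (10.8%), and GAGGAA in 1 of 5 and 1 of 4 (28.3%). A match is a description of letters and no measure of binding. In the adult globin promoters CACCC and CCAAT lie within 40 bases of each other, at -90 and -76 in *Hbb-bs*, counted from the RefSeq transcript start. The stretches that hold these letters in *Hbb-bs*, *Hbb-bt* and *Hba-a2* are shown 5′ to 3′ on the gene's strand. That of *Hba-a1* (CCAAT at -88, CACCC at -60) is not shown. The CACCC repeat of *Alas2* and the TATAAA of *S100a8* that directly follows a GAGGAA match on the other strand are also shown. In the printed stretches, every searched motif, of either strand, is in capitals. They lie at chr7:103827996-103828025 (minus), chr7:103813991-103814020 (minus), chr11:32296396-32296435 (plus), chrX:150547369-150547398 (plus) and chr3:90669027-90669056 (plus). RefSeq and GENCODE place these starts apart, by 168 bases for *Hbb-bs* and 93 for *S100a8*, so 4 of the 5 stretches (all but that of *Hba-a2*) overlap the GENCODE span of their gene.
Hbb-bs: agagccaCACCCtggtaagggCCAATctgc
Hbb-bt: cagggtaaCACCCtggcATTGGCCAATctg
Hba-a2: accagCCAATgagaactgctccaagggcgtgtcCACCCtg
Alas2: gcggaaggGGGTGGGGTGGGGTGggcgggg
S100a8: gccaagctTTCCTCTATAAAagcagctgac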

How the data were processed

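RNA-seq of 3 control and 3 mutant incisor samples was analysed. Trimming, alignment to mm10 and the group comparison were done by the authors in Partek Flow; the submitters' processing notes name TopHat2 2.0.8, and the read counting is not given in the sources used here. The deposited values are a normalized signal, 1 mean per group and gene, beside a summary of each library (minimum, quartiles, mean, maximum), of which 2 other numeric columns were not used. The authors' p-value, FDR, ratio and fold change columns were not used. Each library's signal equals a factor times its reads plus 1: the lower quartile was a whole number of reads, within 0.001 reads, in 6 of 6 libraries. All whole reads that give 3 times a group mean were searched up to 4000 reads, with a tolerance of 1e-13 plus 3e-15 of the sum. This recovered 3645 of 13442 control and 3487 of 12955 mutant means, 0 with several solutions, where 0.356 and 0.377 coincidental solutions were expected. Genes whose reads were split between features stay unrecovered. The search was tested on simulated data. Recovered signal is reads multiplied by the factor. Ratios past 1.5-fold, the fold in the study's methods, were counted, with no test. Replicates are separate samples by their labels.

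Members and the 17 gene lists were chosen with earlier results of these data known. Genes named are the members, *Arid1b*, and from each list the 3 with the highest mean and those past 1.5-fold with a mean of at least 10; others were chosen after their values were seen. Listed genes that were not measured are not analysed here, and some genes are not reported here. Coordinates are from GENCODE vM21 (GRCm38, the assembly of mm10). Alternatives covered fold thresholds, filters, scalings, a pseudocount, summed copies, other gene sets and, chosen after seeing the data, leaving out each library and the filters on recovered reads. Python 3.11.15, numpy 2.4.6, pandas 2.3.3, numba 0.67.0 and matplotlib 3.10.9 were used.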

Additional observations from a re-analysis of the deposited data

How the results depend on the processing

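The median log2 ratio of the red cell members (-1.49) was -1.253 with a pseudocount of 1 and -0.0466 over all measured erythroid genes. That of the neutrophil members (-0.33) was 0.0373 over all measured neutrophil genes, so its sign turned. The red cell to neutrophil ratio was 3.27 in the controls and 1.46 in the mutants. In the controls it was 2.97 with a pseudocount and 3.03 without the most abundant member of each class. Over all measured genes of the lists it was 9.84 in the controls and 7.95 in the mutants, in sums mostly of genes shared with other cells. Of the 10 members, 6 passed 1.5-fold; all 10 passed the lowest threshold tried and 5 passed 2-fold. With a pseudocount 4 passed, with copies summed 4 of 8, and with the filter on means of 10 or more, which leaves 2 members, 2. A pseudocount of 1 is largest, relative to their means, for *Alas2* (1.01 and 0.351) and *Slc4a1* (0.714 and 0.453). Summing copies merges each globin pair into 1 entry. The cause of the other shifts was not tested. With a mean of at least 100 no member is left, and with at least 10 no neutrophil member. The other planned scalings moved these results little.

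Leaving out each library in turn, chosen after seeing the data, gave log2 ratios from -3.71 to -0.09 for *Slc4a1*, -1.30 to 0.17 for *Ngp* and -1.37 to 0.38 for *Camp*. The summed neutrophil genes ranged from -1.15 to 0.31, and of the 6 recovered neutrophil genes outside the set, 3 higher with all libraries, from 1 to 6 were higher. The signs turned without control 3 for *Ngp* (0.17), *Camp* (0.38) and the neutrophil sum (0.31), without mutant 2 for the neutrophil sum (0.10), and without mutant 3 for *Camp* (0.06) and the neutrophil sum (0.03). No paired analysis was possible because the group means carry no replicate number, no source ties equal numbers of the recovered libraries to a shared litter or batch, and the results come from no test. The 11 genes at least 3-fold higher in mutant 1 became 1 when filtered on mutants 2 and 3, and the 43 at least 2-fold higher in control 3 became 8 when filtered on controls 1 and 2, both alternatives added after seeing the data. Recovered reads favour genes with few reads, and the spread of 7 of the 10 members is unknown.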

Other observations

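Eosinophil genes with recovered mutant reads had most of them in mutant 1. *Prg2*, the gene of eosinophil major basic protein, had 36, 60 and 26 reads in controls 1 to 3 and 345, 0 and 10 in mutants 1 to 3. *Ear6*, an eosinophil-associated ribonuclease gene, had 7, 15 and 9 reads in the controls and 59, 0 and 0 in the mutants. Mutant 1 held 96.7% of the summed mutant signal of these 2 genes, and counts of 0 allow up to 3 reads. The authors' mean of *Prg2* was thus higher in the mutants (1.09 and 2.31), while without mutant 1 its signal was 8.09-fold lower than in the controls. *Epx*, the eosinophil peroxidase gene, had 49, 4 and 10 reads in the mutants and *Prg3* had 10, 0 and 1. They are named on the strength of these values. Of the 11 measured genes of eosinophils, basophils and mast cells, 3 were lower past 1.5-fold (*Epx*, *Prg3* and *Ms4a2*) and 4 were higher (*Prg2*, *Ear1*, *Mcpt4* and *Tpsb2*). Over all genes these shares were 5.8% and 7.37%. The genes of highest mean after *Prg2* were *Ear2* (0.708 and 0.755) and *Ear1* (0.340 and 0.994).

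Genes known from red cells differed in their spread over the mutants. *Rhd*, the Rhesus D antigen gene, had 23, 13 and 28 recovered reads in mutants 1 to 3. *Abcb10*, a mitochondrial transporter gene of the heme pathway, had 828, 1023 and 1038 reads in the controls and 1307, 971 and 843 in the mutants, and its normalized signal was 24.9 ± 2.75 (SD, n = 3) and 23.4 ± 1.46 (SD, n = 3), a log2 ratio of -0.09 with all libraries and -0.14 without mutant 1. *Tent5c*, a poly(A) polymerase gene, was at 16.3, 14.2 and 15.5 in normalized signal in the controls and at 14.4, 9.95 and 11.9 in the mutants, so that mutant 1 was 1.32-fold above the mean of mutants 2 and 3 and these were below every control.

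The mean of the library maxima, 91670 in the controls and 70387 in the mutants, was that of the ribosomal RNA feature *CT010467.1*. The maxima took up 9.58%, 9.85% and 7.35% of the signal in controls 1 to 3 and 4.75%, 8.57% and 8.10% in mutants 1 to 3, so mutant 1 was lowest here. Its part in the blood cell values was not tested.

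Control 3 was at least 2-fold above the mean of controls 1 and 2 for 43 of 1821 genes (2.36%) with recovered reads and at least 50 reads over the mutants, a filter free of control 3. It was at least 2-fold below that mean for 102 (5.60%), 0 of them on the blood cell lists. The 43 included 6 of the 13 such genes on the blood cell lists, *Slc4a1*, *Fpr1*, *Ngp*, *Camp*, *Cd177* and *Retnlg*. A filter of 50 reads over controls 1 and 2 left 8 genes higher, with *Ngp* the 1 from the blood cell lists, and 66 lower.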
